A study of Mus musculus with 8 samples.

Results

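Interferon-stimulated genes were examined as a group of 47 genes in the colon of bone-marrow chimeric mice. They were chosen from a list of genes induced by type I interferon and of GTPases induced by interferon-gamma, with the requirement that the mean of the 8 libraries reach a normalized count of 10. All 47 listed genes met it, among 26008 genes in the table and 19127 genes tested. Each library came from colon biopsies of 1 mouse. The recipients were male C57BL/6JRj wild-type mice that were irradiated and grafted at 7 weeks of age with marrow from male Penk-/- donors (4 mice, a B6.129 background) or male Penk+/+ donors (4 mice), and their colon was taken at least 18 weeks later. The genotype names the marrow donor only: epithelium, muscle and enteric neurons of every mouse came from the wild-type host, all mice were irradiated, and some host blood cells can remain. Penk encodes proenkephalin, the precursor of the enkephalin opioid peptides.

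Interferons are secreted signals of antiviral defence that act through separate receptors. Type I interferons (through *Ifnar1* and *Ifnar2*) and type III interferons (through *Ifnlr1* and *Il10rb*) activate a transcription factor complex, with STAT2 and IRF9 among its subunits, that binds the interferon-stimulated response element (ISRE) in promoters. Interferon-gamma (through *Ifngr1* and *Ifngr2*) acts through the gamma-activated site (GAS). In the gut the epithelium is known to answer mainly to type III interferon and the cells of the lamina propria to type I interferon, and a low tonic activity of the pathway is kept by the microbiota.

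The libraries held 33.1 M to 50.7 M reads assigned to genes (median 38.5 M). Penk itself ranged from 453 to 616 normalized counts with Penk-/- marrow and from 473 to 636 with Penk+/+ marrow (log2 fold change -0.03, limma adjusted p = 0.957), so its mRNA in the biopsies did not tell the genotypes apart. All 6 epithelium markers were present in every library, with a summed level of 252455 to 350065 in Penk-/- and 322131 to 381366 in Penk+/+ chimeras. The pan-leukocyte gene *Ptprc* stood at 650 to 1295 against 510 to 1297. Penk-/- mouse 3 and Penk+/+ mouse 4 held 209863 and 217825 counts of 3 male accessory gland genes, against 54.2 to 27526 in the other libraries, and results were therefore also computed without both. In bulk tissue, fewer cells of a type and less RNA per cell cannot be told apart.

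The members spanned a wide range of levels. Per kilobase of transcript, *Ifi27l2b*, an interferon-inducible small membrane protein gene, was the most abundant, with a mean over the 8 mice of 2948 normalized counts per kb (2173 to 3439). The transcription factor gene *Irf1* followed with 2539 per kb (1675 to 3279), and the ranges of these genes overlapped. *Irf7* reached 1320 and *Oas1a* 1185 per kb. At the other end, *Oas3* and *Gbp6* each had 20.5 per kb and *Tgtp1* had 12.3 per kb. Of the 50-base windows of their transcripts, 88% for *Gbp6* and 92.7% for *Tgtp1* also occur in other genes. The levels of *Gbp6* and *Tgtp1* are therefore uncertain. The type I effectors lay at both ends of this order, and *Isg15* had 160, *Ifit1* 35.8 and *Mx2* 21.8 per kb.

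**Figure D1:**
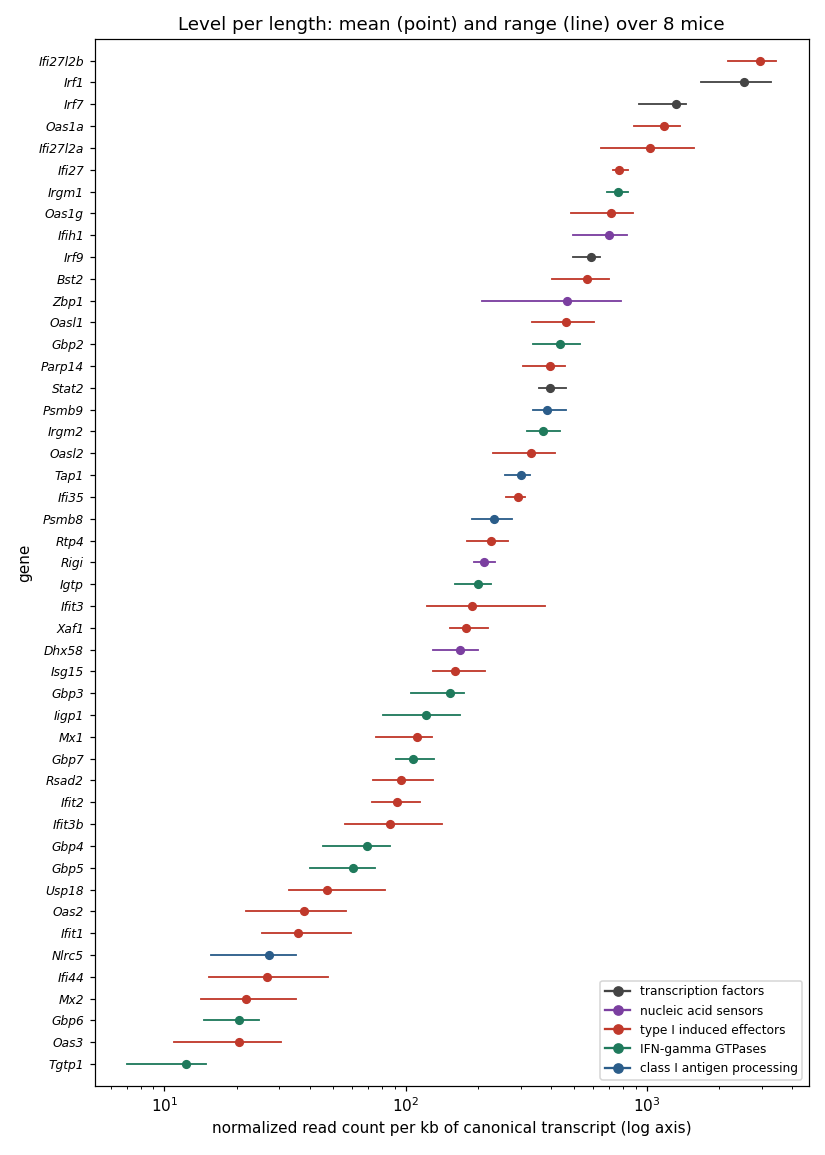
Mean normalized count per kilobase of canonical transcript for each of the 47 genes, on a log axis. Levels run from 12.3 for *Tgtp1* to 2948 for *Ifi27l2b*.

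No interferon-stimulated gene differed between the genotypes after adjustment over all 19127 genes tested. The smallest adjusted p among the members was 0.339 (*Ifit3b*, limma on log2 of the normalized count plus 1, Benjamini-Hochberg), and the smallest over all genes was 0.132. At an unadjusted p under 0.05, 5 of 47 members were counted, against 9.63% of all genes tested. Lower in Penk-/- chimeras were *Ifit3b*, *Oasl2*, *Ifih1* and *Oas3* (background 5.33% of genes), and higher was *Ifi27l2a* (background 4.3%). The log2 fold change was below 0 for 33 members (70.2%), against 48.9% of all genes tested, and its median was -0.11 against 0.01. The size of the changes was close to that of other genes: the median absolute log2 fold change was 0.13 for the members and 0.12 for all genes. Within a genotype the members varied with a median SD of 0.24 on the log2 scale, against 0.20 for all genes. *Ifit3b* was the only member whose genotypes did not overlap, where 5.63% of all genes did not overlap (2.74% lower and 2.89% higher in Penk-/- chimeras). On the reads of 7 libraries, without Penk-/- mouse 1, edgeR gave 0 members an adjusted p under 0.05 (0.0261% of all genes) and 10 an unadjusted one (11.8% of all genes). DESeq2 gave 2 an adjusted p under 0.05, *Ifit3b* and *Ifih1* (1.88% of all genes). Limma without that mouse gave the same 10 members as edgeR an unadjusted p under 0.05 (11.6% of all genes), and 0 an adjusted one. The labels give no litter or cage for these mice, and p-values measure the spread between these mice only.

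**Figure D2:**
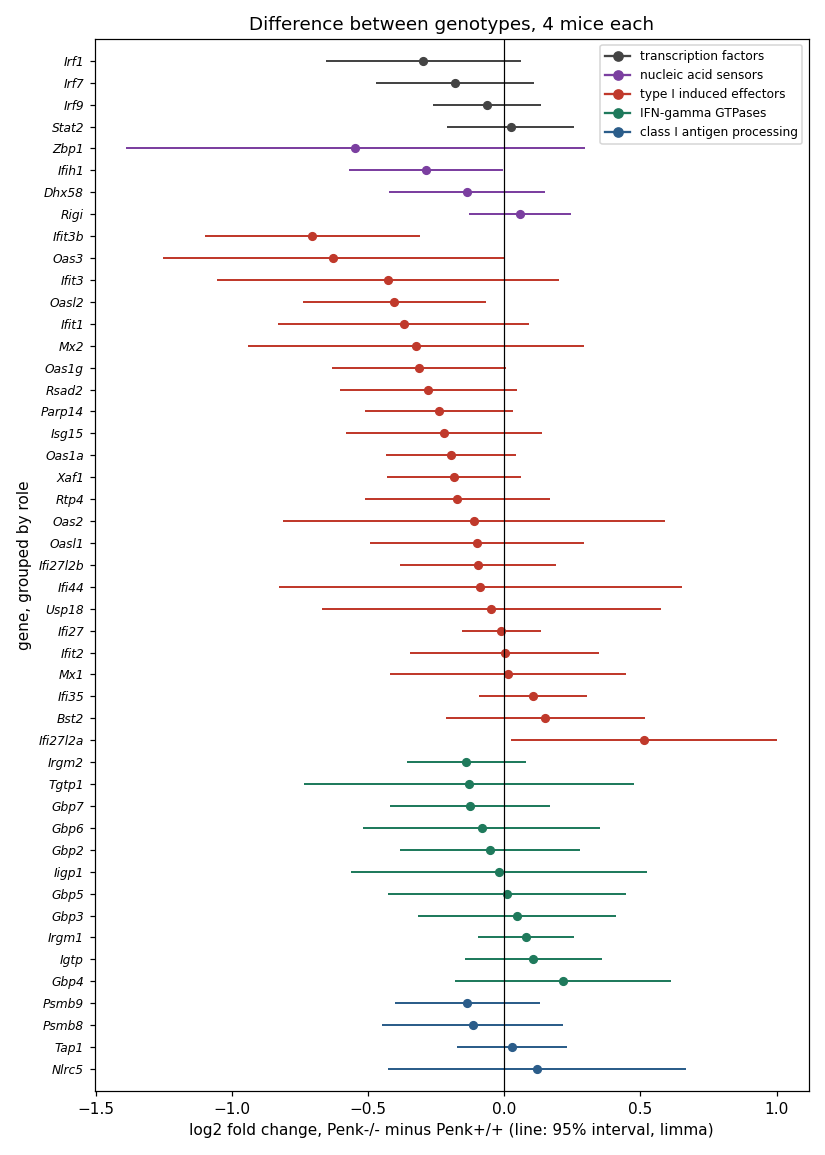
Log2 fold change (Penk-/- minus Penk+/+) of each member with its 95% confidence interval, grouped by role. Values run from -0.71 for *Ifit3b* to 0.51 for *Ifi27l2a*, and 33 of 47 points lie below 0.

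The 24 type I interferon effectors were mostly lower in Penk-/- chimeras, 19 below 0 and 5 above, where 48.9% of all genes tested lay below 0. Their median log2 fold change was -0.18. Without both accessory gland libraries the median was -0.05 with 16 of 24 below 0, and without Penk+/+ mouse 4 alone it was -0.13 with 15 below 0. Of the 24, 3 lower and 1 higher passed the unadjusted threshold, against 5.33% and 4.3% of all genes tested. In the 250 bases upstream of the transcript start, 12 of the 24 (50%) held the ISRE core, GAAA and GAAA set 2 bases apart, on either strand, against 3.27% of 19040 promoters of tested genes. Over all members the share was 17 of 47 (36.2%). A match is a description of the letters and not of binding. No ISRE core was found for *Oasl2*, *Oasl1*, *Oas1a*, *Ifi27l2a*, *Ifi27l2b*, *Parp14*, *Mx1*, *Mx2*, *Ifit2*, *Ifi35*, *Ifi44* or *Xaf1*. The windows of some effectors with a core, such as *Ifit1* and *Rsad2*, are not printed. The promoter windows below (GRCm39, 5′ to 3′ in the direction of the gene) are those of some of these effectors, with the ISRE core in capitals.

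Ifit3b (chr19:34585193-34585222, + strand): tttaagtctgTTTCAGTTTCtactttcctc
Ifit3b (chr19:34585159-34585188, + strand): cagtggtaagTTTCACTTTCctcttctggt
Ifit3 (chr19:34560797-34560826, + strand): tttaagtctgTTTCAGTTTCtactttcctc
Ifit3 (chr19:34560763-34560792, + strand): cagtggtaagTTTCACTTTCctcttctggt
Isg15 (chr4:156285328-156285357, - strand): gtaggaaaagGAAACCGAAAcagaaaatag
Oas3 (chr5:120915780-120915809, - strand): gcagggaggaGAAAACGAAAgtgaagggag
Oas1g (chr5:121025669-121025698, - strand): tcgggaaatgGAAACTGAAAatctacttcc

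*Ifit3* and *Ifit3b*, neighbours on chromosome 19, held the same pair of ISRE windows letter for letter, with the core on the opposite strand (TTTC and TTTC). *Isg15* and *Oas1g* held further cores that overlap the printed one.

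*Ifit3b* (ENSMUSG00000062488, chr19:34585328-34590801 on GRCm39) belongs to the IFIT family, whose proteins bind foreign RNA and curb viral translation. It had normalized counts of 141, 114, 145 and 130 in the Penk-/- mice, against 192, 168, 234 and 289 in the Penk+/+ mice. Every Penk-/- mouse lay below every Penk+/+ mouse. The means were 133 ± 13.6 and 221 ± 53.0 (SD, n = 4 each) and the log2 fold change was -0.71 (SE 0.17, 95% confidence interval -1.10 to -0.31). Limma gave p = 0.00265 and an adjusted p of 0.339, and the exact two-sided permutation test gave p = 0.0286, the smallest that 4 against 4 mice allow. The unadjusted p stayed below 0.05 under all 21 alternative settings, and the log2 fold change ran from -0.83 to -0.57. Of the 50-base windows of its transcript, 47.8% also occur in *Ifit3*, so reads of the pair could be split between them.

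*Ifit3* (chr19:34560899-34566443), which was added after its values were seen because of this likeness, had 256, 295, 424 and 325 normalized counts in Penk-/- and 326, 334, 396 and 794 in Penk+/+ chimeras. The groups overlapped, and Penk+/+ mouse 4 stood far above the rest. Its log2 fold change was -0.43 (SE 0.28, adjusted p = 0.662). The sum of both genes was 398, 410, 568 and 455 in Penk-/- against 518, 502, 630 and 1083 in Penk+/+ chimeras, which overlapped. *Ifit3b* made up 25.5% to 35.5% of this sum in Penk-/- and 26.7% to 37.2% in Penk+/+ chimeras. Of the other IFIT genes, *Ifit1* had 273, 188, 204 and 252 against 249, 273, 245 and 440 (log2 fold change -0.37). Without Penk+/+ mouse 4 the log2 fold change was -0.17 for *Ifit1* and -0.13 for *Ifit3*, and *Ifit2* had a log2 fold change of 0.00 in all mice.

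The oligoadenylate synthetases make the small messenger that activates RNase L. *Oasl2* (chr5:115034997-115050295), a family member with ubiquitin-like domains, had 1054, 800, 721 and 1000 normalized counts in Penk-/- and 921, 1297, 1275 and 1227 in Penk+/+ chimeras. Only Penk+/+ mouse 1 and Penk-/- mice 1 and 4 crossed. The log2 fold change was -0.40 (SE 0.15, 95% confidence interval -0.74 to -0.07, limma p = 0.0224, adjusted p = 0.452), with an exact permutation p of 0.0857. *Oas3* (chr5:120891163-120915729) was low, with 118, 56.1, 51.6 and 84.0 against 83.4, 115, 143 and 122. Penk-/- mouse 1 lay within the Penk+/+ range, mouse 4 at its lower end and the other 2 below it. Its log2 fold change was -0.63 (SE 0.28, limma p = 0.0488, adjusted p = 0.514, exact permutation p = 0.143).

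*Oas1g* (chr5:121014205-121025676) had 1597, 1313, 955 and 1209 normalized counts in Penk-/- and 1739, 1445, 1571 and 1463 in Penk+/+ chimeras. Only Penk-/- mouse 1 reached the Penk+/+ range. The log2 fold change was -0.31 (SE 0.14, adjusted p = 0.522, exact permutation p = 0.114). *Oas1a*, which shares 56.8% of its 50-base windows with *Oas1g*, had 2319, 2221, 1685 and 2244 against 2632, 2248, 2413 and 2347 (log2 fold change -0.20, exact permutation p = 0.0571). Their sum was 3917, 3534, 2640 and 3453 against 4371, 3693, 3984 and 3810, and here too Penk-/- mouse 1 lay within the Penk+/+ range. Penk-/- mouse 3 was the lowest mouse for both genes, and without it the log2 fold changes were -0.18 for *Oas1g* and -0.09 for *Oas1a*.

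*Ifi27l2a* (chr12:103399975-103409950) went the other way. The Penk-/- mice had 414, 564, 748 and 566 normalized counts and the Penk+/+ mice 326, 305, 444 and 538, with Penk-/- mouse 3 the highest and the groups overlapping. The means were 573 ± 137 and 403 ± 109 (SD, n = 4 each), and the log2 fold change was 0.51 (SE 0.22, limma p = 0.0405, adjusted p = 0.496, exact permutation p = 0.143). It shares 163 exonic bases with *Ifi27* on the opposite strand, and the strand setting of the counting is not given in the sources used here. Of its neighbours, *Ifi27* lay between 1738 and 2019 in all 8 mice, and *Ifi27l2b* had a log2 fold change of -0.10 (SE 0.13, adjusted p = 0.855).

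*Parp14*, an ADP-ribosyltransferase gene, had a log2 fold change of -0.24 (SE 0.12, adjusted p = 0.561, means 2749 ± 498 and 3215 ± 224). *Rsad2*, which encodes the antiviral radical enzyme viperin, had 396, 309, 277 and 323 normalized counts in Penk-/- and 391, 348, 356 and 490 in Penk+/+ chimeras (log2 fold change -0.28, SE 0.14, adjusted p = 0.578; -0.17 without Penk+/+ mouse 4). All Penk-/- mice but mouse 1 lay below the Penk+/+ range. *Isg15*, the ubiquitin-like modifier, had 126, 117, 102 and 115 against 129, 140, 105 and 167 (log2 fold change -0.22, and -0.11 without Penk+/+ mouse 4). *Mx1*, a dynamin-like GTPase that is defective in most C57BL/6 mice, had 329, 203, 332 and 347 against 336, 266, 241 and 343. Neither gene separated the genotypes.

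The remaining effectors did not pass the unadjusted threshold and overlapped between the genotypes. *Ifi44*, *Oas2*, *Usp18* and *Mx2* were low genes with a wide spread between mice. *Usp18*, which encodes the protease that removes *Isg15* from proteins, had 71.7, 74.4, 85.8 and 88.4 normalized counts with Penk-/- marrow and 58.5, 60.9, 88.9 and 146 with Penk+/+ marrow (log2 fold change -0.05). *Oas2* had 133, 101, 161 and 154 against 84.6, 114, 213 and 220 (log2 fold change -0.11). In both genes Penk+/+ mice stood at both ends of the range, with mouse 1 the lowest and mouse 4 the highest. *Ifi44* varied 3.12-fold between mice in the same way, from 44.8 in Penk+/+ mouse 1 to 140 in Penk+/+ mouse 4, and *Mx2* had a log2 fold change of -0.32 (SE 0.27), which was -0.13 without Penk+/+ mouse 4. More even genes were *Xaf1*, a pro-apoptotic factor (407 to 583 normalized counts, log2 fold change -0.19), *Rtp4* (287 to 423, -0.17) and *Ifi35* (354 to 426, 0.10). *Bst2*, the tetherin that holds budding virus at the cell surface, had 452, 397, 564 and 488 against 325, 418, 442 and 543 (log2 fold change 0.15, SE 0.16). *Oasl1*, a relative of *Oasl2* without synthetase activity, had a log2 fold change of -0.10 (SE 0.17).

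**Figure D3:**
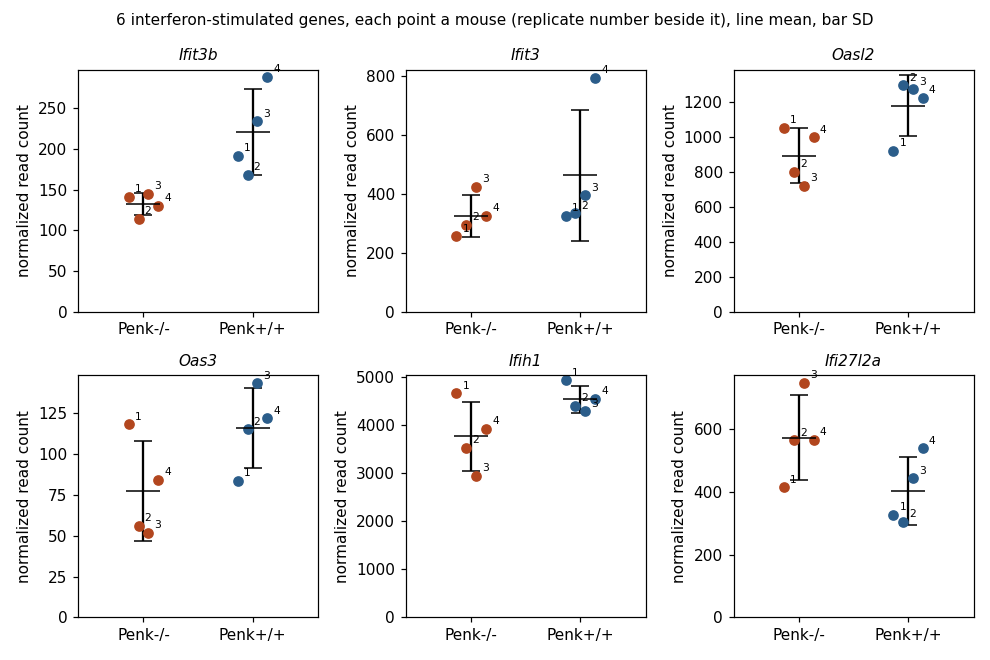
Normalized counts of 6 members in each mouse, with the mean and SD of each genotype. *Ifit3b* is the gene among the 47 in which the 4 Penk-/- mice (114 to 145) all lie below the 4 Penk+/+ mice (168 to 289).

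Among the 4 transcription factors, 3 had a log2 fold change below 0, and none passed the unadjusted threshold. *Irf1* (chr11:53660812-53669200), which drives interferon-gamma responses, had 6331, 4648, 3578 and 5071 normalized counts in Penk-/- and 7004, 5730, 5609 and 5411 in Penk+/+ chimeras. Penk-/- mouse 3 was the lowest and only Penk-/- mouse 1 reached the Penk+/+ range. The log2 fold change was -0.30 (SE 0.16, 95% confidence interval -0.65 to 0.06, adjusted p = 0.593, exact permutation p = 0.171), and -0.16 without Penk-/- mouse 3. It shares 1467 exonic bases with *Gm17334* on the opposite strand, whose mean was 140. *Irf7*, the amplifier of type I interferon production, had 3489, 2887, 2224 and 3348 against 3328, 3374, 3177 and 3483 (log2 fold change -0.18, adjusted p = 0.69). *Irf9* and *Stat2*, subunits of the ISRE-binding complex, had log2 fold changes of -0.06 and 0.02.

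The 4 nucleic acid sensors had a median log2 fold change of -0.21, with 3 below 0. *Ifih1* (chr2:62425714-62476607), which encodes the double-stranded RNA sensor MDA5, had 4667, 3529, 2954 and 3930 normalized counts in Penk-/- and 4938, 4403, 4296 and 4546 in Penk+/+ chimeras. Penk-/- mouse 1 lay within the Penk+/+ range and the other 3 below it. The log2 fold change was -0.29 (SE 0.12, 95% confidence interval -0.57 to -0.01, limma p = 0.0441, adjusted p = 0.504, exact permutation p = 0.114), and -0.18 without Penk-/- mouse 3. *Zbp1* (chr2:173033815-173060724), the sensor of Z-form nucleic acids, varied 3.75-fold between mice, with 1374, 617, 416 and 686 in Penk-/- and 1262, 919, 1560 and 611 in Penk+/+ chimeras. High and low mice occurred in both genotypes, and the log2 fold change was -0.55 (SE 0.37, 95% confidence interval -1.39 to 0.29, adjusted p = 0.68). It was -0.87 without Penk-/- mouse 1, -0.30 without Penk-/- mouse 3 and -0.35 without Penk+/+ mouse 3. *Rigi*, the sensor of RNA with free triphosphate ends, lay between 744 and 914 in all mice (log2 fold change 0.06), and *Dhx58*, the regulatory relative of both RNA sensors, had a log2 fold change of -0.14 (SE 0.13).

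The 11 GTPases induced by interferon-gamma (guanylate-binding proteins and immunity-related GTPases, which act on pathogen vacuoles) were divided between both directions, with 6 below 0 and 5 above, a median log2 fold change of -0.02 and a range of -0.14 to 0.22. None passed the unadjusted threshold. The GAS core TTCNNNGAA, which reads the same on both strands, was found in the 250 bases upstream of 5 of the 11 (45.5%), against 6.69% of all promoters, and of 3 of the 24 type I effectors (12.5%). The ISRE core was found in 3 of the 11 (27.3%). A window of each kind is shown, with the core in capitals, together with that of *Irf1*.

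Gbp5, GAS (chr3:142202440-142202468, + strand): tgtgggcaacTTCTGGGAAattagttcag
Irf1, GAS (chr11:53660741-53660769, + strand): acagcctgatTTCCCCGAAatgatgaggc
Irgm1, ISRE (chr11:48762252-48762281, - strand): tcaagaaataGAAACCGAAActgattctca

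*Irgm1* (chr11:48752795-48763164), the most abundant of these GTPases in normalized counts, had 1748, 1670, 1454 and 1635 in Penk-/- and 1430, 1616, 1469 and 1639 in Penk+/+ chimeras. The groups overlapped over most of their range (log2 fold change 0.08, SE 0.08, 95% confidence interval -0.09 to 0.25, adjusted p = 0.784). *Gbp4* had the largest change of the class, with 301, 342, 391 and 301 against 205, 369, 310 and 283 (log2 fold change 0.22, SE 0.17, 95% confidence interval -0.18 to 0.61, adjusted p = 0.738), which was 0.06 without Penk+/+ mouse 1, 0.14 without Penk-/- mouse 3 and 0.34 without Penk+/+ mouse 2. Penk+/+ mouse 1 was the lowest for *Gbp4*, as it was for 7 of the 11 GTPases. The other guanylate-binding proteins, *Gbp2*, *Gbp3*, *Gbp5*, *Gbp6* and *Gbp7*, had log2 fold changes from -0.12 to 0.05. *Iigp1*, an effector GTPase that coats pathogen vacuoles, had 274, 318, 486 and 383 against 245, 416, 328 and 512 (log2 fold change -0.02, SE 0.24), with the highest and the lowest mouse both in the Penk+/+ group. The regulators *Irgm2* and *Igtp* had log2 fold changes of -0.14 (SE 0.10) and 0.11 (SE 0.11). *Gbp6* shares 87.4% of its 50-base windows with the predicted gene *Gm43302*. *Tgtp1*, at 20.2 to 42.9 normalized counts, shares 87.4% of its windows with *Tgtp2*, and its own value is uncertain. Its log2 fold change was -0.13. The sum of both genes went the other way, with means of 156 ± 26.8 in Penk-/- and 139.5 ± 15.8 in Penk+/+ chimeras (SD), and overlapped.

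The 4 class I antigen processing genes were divided evenly, 2 below 0 and 2 above. *Tap1*, a subunit of the peptide transporter, had 1015, 940, 893 and 934 normalized counts in Penk-/- and 800, 995, 904 and 1022 in Penk+/+ chimeras (log2 fold change 0.03, SE 0.09, 95% confidence interval -0.17 to 0.23, adjusted p = 0.949). *Psmb9*, an immunoproteasome subunit transcribed from the opposite strand with 743 shared exonic bases, had 597, 458, 464 and 480 against 498, 624, 489 and 584 (log2 fold change -0.14, SE 0.12, adjusted p = 0.755). Neither separated the genotypes. *Psmb8*, the neighbouring immunoproteasome subunit, had a log2 fold change of -0.12 (SE 0.15). *Nlrc5*, the transactivator of class I genes, had 160, 206, 265 and 217 against 118, 250, 198 and 230.

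The extreme values were spread unevenly over the mice. Penk+/+ mouse 4 was the highest of the 8 mice for 18 members (38.3%), against 13% of all genes tested, and 11 of these were type I effectors, among them *Ifit3*, *Ifit1*, *Isg15*, *Rsad2* and *Usp18*. Penk-/- mouse 3 was the lowest for 16 members (34%, against 20.3% of all genes), including 3 of the 4 sensors. Penk+/+ mouse 1 was the lowest for 15 members (31.9% against 17.2%). The mean centred log2 level of the type I effectors was 0.37 in Penk+/+ mouse 4 and between -0.20 and 0.09 in the other 7 mice, while that of the GTPases was lowest in Penk+/+ mouse 1 (-0.27). Penk+/+ mouse 4 and Penk-/- mouse 3 are also the libraries with the most accessory gland RNA. Without both of them, 2 members passed the unadjusted threshold, *Ifit3b* and *Ifi27l2a*, against 9.07% of all genes.

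**Figure D4:**
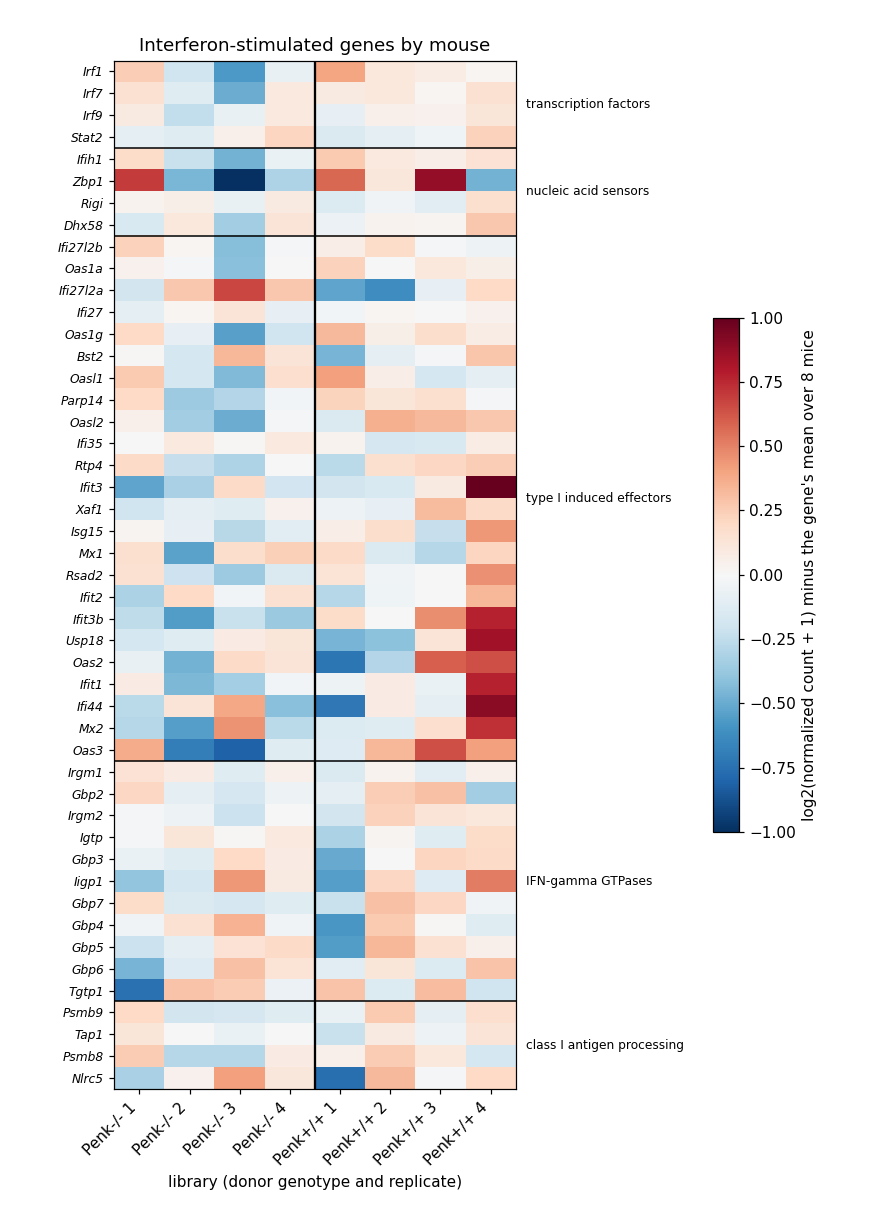
Log2 level of each member in each mouse, centred on the mean of the 8 mice, with colours limited at 1 on either side. Penk+/+ mouse 4 is the highest mouse for 18 of the 47 members and Penk-/- mouse 3 the lowest for 16.

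The epithelium score, the mean centred log2 level of the 6 epithelium markers, was 0.17, -0.09, -0.36 and 0.05 in Penk-/- and 0.25, -0.00, -0.10 and 0.09 in Penk+/+ chimeras. It was lowest in Penk-/- mouse 3, and the genotypes overlapped. Fitted on this score together with genotype, 4 of 47 members had a slope with an adjusted p under 0.05, all positive, against 7.59% of all genes (5.25% positive): *Irf1* (slope 1.28), *Ifih1* (1.01), *Oasl1* (1.41) and *Irf7* (0.95), log2 units per unit of score. *Oasl1*, *Irf7*, *Nlrc5*, *Ifi44* and *Iigp1* are named here after their values were seen. With the 2 mice of the most extreme scores left out, Penk-/- mouse 3 and Penk+/+ mouse 1, no member passed, as only 15 of all genes tested did. The slopes of *Irf1*, *Ifih1*, *Oasl1* and *Irf7* then stayed between 0.93 and 1.25, but only 31 of the 47 members kept the sign of their slope. Slopes of the opposite sign were found in 22 members and did not pass, among them *Nlrc5* (-1.52), *Ifi44* (-1.44), *Iigp1* (-1.27), *Ifi27l2a* (-1.19) and *Gbp4* (-1.13). Without the same 2 mice *Ifi44* (0.83) and *Iigp1* (0.71) turned positive, and *Nlrc5* (-0.46), *Ifi27l2a* (-0.58) and *Gbp4* (-0.69) stayed negative. With the score as a covariate, *Ifih1*, *Ifit3b* and *Oasl2* had an unadjusted p under 0.05 for genotype, against 11.5% of all genes. In that fit *Ifih1* had a log2 fold change of -0.17 and *Irf1* of -0.15. Whether tissue composition has a part in the difference of any member was not tested.

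**Figure D5:**
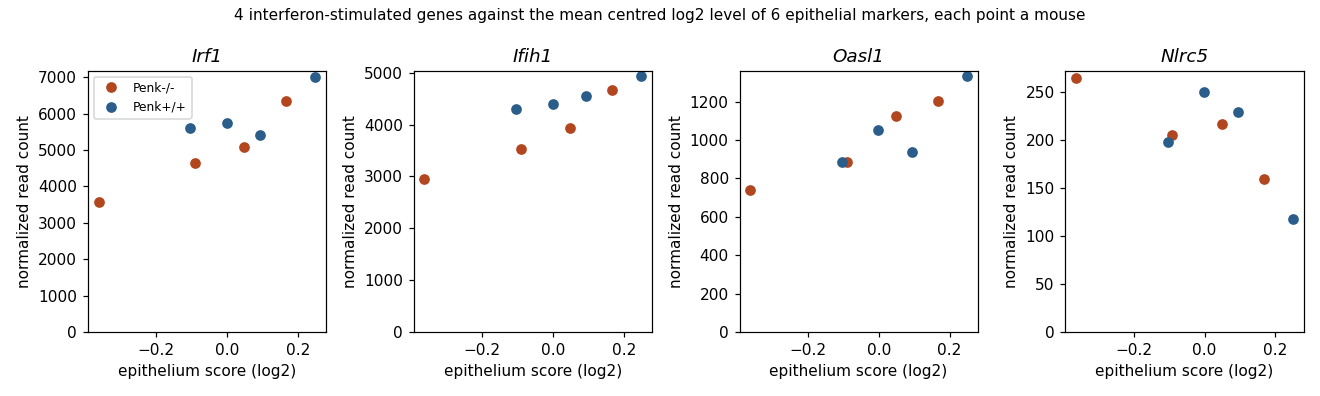
Normalized counts of 4 members (*Irf1*, *Ifih1*, *Oasl1* and *Nlrc5*) against the epithelium score (log2) in the 8 mice, coloured by genotype. Penk-/- mouse 3 (score -0.36) has the lowest *Irf1*, *Ifih1* and *Oasl1* and the highest *Nlrc5* (265), and Penk+/+ mouse 1 (0.25) the reverse.

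Around the members, 83 further genes of the pathway were listed. The 12 interferon ligand genes are not analysed here, and 68 of the others passed the filter on low values. Of these 68, 9 were lower in Penk-/- chimeras at an unadjusted p under 0.05 and 0 were higher, where 5.33% of all genes were lower and 4.3% higher, and 0 had an adjusted p under 0.05 by limma. By DESeq2 on 7 libraries, without Penk-/- mouse 1, 4 had one, *Ifngr1* (0.00118), *Parp9* (0.00186), *Dtx3l* (0.00394) and *Trim25* (0.0431), against 1.88% of all genes. The mouse left out was the highest of the Penk-/- mice for all 4 genes, and limma without it gave 0 of the 68 an adjusted p under 0.05. A log2 fold change below 0 was found in 43 of 68, against 48.9% of all genes tested.

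Among the 6 receptor chains 1 was counted, lower in Penk-/- chimeras, where 5.33% of all genes tested were lower. *Ifngr1*, the ligand-binding chain of the interferon-gamma receptor, had 18139, 13878, 12760 and 15272 normalized counts in Penk-/- and 22321, 18317, 19204 and 18120 in Penk+/+ chimeras. Only Penk-/- mouse 1 touched the Penk+/+ range. The log2 fold change was -0.38 (SE 0.11, 95% confidence interval -0.64 to -0.13, limma adjusted p = 0.385), and the unadjusted p stayed below 0.05 under all 21 alternatives. Its partner *Ifngr2* had a log2 fold change of -0.21 (adjusted p = 0.552). The type I chains *Ifnar1* (-0.06) and *Ifnar2* (-0.08) and the type III chains *Ifnlr1* (0.00) and *Il10rb* (-0.09) lay near 0, and the sign of the last 3 changed under other settings or with a library left out. Of 10 signal transduction genes 0 were counted, and 9 had a log2 fold change below 0, as had 48.9% of all genes tested.

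Of 15 sensing genes, 4 were counted, all lower in Penk-/- chimeras, where 5.33% of all genes tested were lower. A log2 fold change below 0 was found in 8 of the 15, against 48.9% of all genes tested. *Tlr3*, the endosomal double-stranded RNA receptor, had 1518 ± 147 against 1800 ± 163 (log2 fold change -0.25, adjusted p = 0.452), and its adaptor *Ticam1* had 1380 ± 206 against 1718 ± 224 (-0.32, adjusted p = 0.467). *Trim25*, a ubiquitin ligase in RIG-I signalling, had a log2 fold change of -0.31 (adjusted p = 0.457) and *Irf2* one of -0.22 (adjusted p = 0.488). Of 37 further induced genes 21 had a log2 fold change below 0, against 48.9% of all genes tested. At an unadjusted p under 0.05, 4 of the 37 were counted, all lower, against the same 5.33% of all genes. They were *Sp100*, a nuclear body protein (-0.39, limma adjusted p = 0.41), the partners *Parp9* (-0.30) and *Dtx3l* (-0.38), and *Herc6*, the main *Isg15* ligase of the mouse (-0.26). All 9 overlapped between the genotypes. Outside the 9, *Tyk2* and *Sting1* were higher in every Penk-/- mouse than in every Penk+/+ mouse. Their log2 fold changes were 0.08 and 0.15 (limma adjusted p = 0.64 and 0.546). Of all genes tested, 2.89% did not overlap in that direction.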

How the data were processed

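RNA of colon biopsies of 8 mice was sequenced as stranded poly-A paired-end libraries. The authors aligned reads to GRCm39 (the submitters' processing notes name FastQC, STAR 2.7.8a and DESeq2 1.30.0) and deposited one table of normalized counts, a signal scaled by a size factor per library. Every value was a whole multiple of its library's step, from which the depth was taken. Weeks and ages come from the study's methods.

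Genes with a mean of at least 10 were tested on log2(normalized count + 1) with limma 3.58.1 (R 4.3.3, trended variance, two-sided, Benjamini-Hochberg over 19127 genes), and single genes with an exact permutation test over 70 assignments. A fold change on this scale understates that of low genes. Members and lists were chosen with earlier results of these data known. Members named by rule were those with the 8 smallest p, the highest mean and the largest change of each role, and those whose groups did not overlap. Values by mouse of *Ifit1*, *Ifit3*, *Oas1a*, *Oas2*, *Isg15*, *Mx1*, *Usp18*, *Bst2*, *Irf7*, *Iigp1* and *Nlrc5* were given outside this rule. Of the other pathway genes, the receptors and those with an unadjusted p under 0.05 were named, and outside this rule *Tyk2* and *Sting1*. A further gene that was to be named is not reported here. Identifiers were matched to the GENCODE annotation of GRCm39 (25776 of 26008), and promoters were the 250 bases before the canonical start. The fit was tested on simulated data. Planned count tests on all 8 libraries were not run. The step of Penk-/- mouse 1 was near 1, and its reads were not taken as recovered for these tests, although its values too were whole multiples of the step. Its depth was still taken from that step. edgeR 4.0.16 and DESeq2 1.42.0 were run on the reads of the other 7 libraries, and voom on the deposited values, all chosen after seeing the data.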

Additional observations from a re-analysis of the deposited data

Results flagged for a closer look

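In 104 groups of 4 mice (both genotypes of each gene examined), 6 held a mouse whose gap to its nearest neighbour, as a share of the group's range, passed Dixon's 95% limit for 4 samples. Chance flags about 1 in 20 such groups. In Penk+/+ chimeras these were *Ifit1* (0.858) and *Ifit3* (0.852), where mouse 4 was the highest with 440 and 794 normalized counts. In Penk-/- chimeras they were *Gbp7* (0.873) and *Psmb9* (0.844), where mouse 1 was the highest with 685 and 597, *Mx1* (0.877), where mouse 2 was the lowest with 203, and *Oas1a* (0.845), where mouse 3 was the lowest with 1685.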

How the results depend on the processing

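Over 21 other settings, the median log2 fold change of each role moved by less than the SD between mice pooled over both genotypes, but without both accessory gland libraries it was -0.02 for transcription factors, -0.08 for sensors, -0.05 for type I effectors, -0.02 for GTPases and 0.01 for class I genes, and with the epithelium score -0.06 for transcription factors. The GTPase and class I medians changed sign under some settings. With 0 genes at an adjusted p under 0.05 by limma (1842 at an unadjusted p under 0.05), the count was 1 with quantile normalization, 1 with the replicate block, 1 with the epithelium score as covariate, 5 by edgeR and 360 by DESeq2 on 7 libraries, and 0 to 6 with a library left out (6 without Penk-/- mouse 1). Members with an unadjusted p under 0.05 (5, with 9.63% of all genes) were 2 without the variance trend (9.33%), 8 with the replicate block (15.4%), 2 without both accessory gland libraries (9.07%), 3 with the epithelium score (11.5%), 2 with *Ptprc* (9.94%), 10 by edgeR (11.8%), 11 by DESeq2 (12.2%) and 2 with voom (11.7%). With a library left out they were 1 to 10 (7.23% to 11.6% of all genes): 10 without Penk-/- mouse 1, 1 without Penk-/- mouse 2, Penk-/- mouse 3 or Penk+/+ mouse 2, and 2 without Penk-/- mouse 4, Penk+/+ mouse 3 or Penk+/+ mouse 4. DESeq2 gave 2 members an adjusted p under 0.05, *Ifit3b* (0.0333) and *Ifih1* (0.0300). The other pathway genes (9) were 20 with the replicate block, by edgeR and by DESeq2, and 2 to 19 with a library left out (19 without Penk-/- mouse 1, 2 without Penk-/- mouse 3, 4 without Penk-/- mouse 2 or 4 or Penk+/+ mouse 1 or 3).

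The replicate numbers did not pair the mice: same-numbered mice correlated at 0.145, -0.0444, -0.321 and -0.162 in their deviations from the group means. The sign changed under at least 1 setting for 19 of the 47 members, none of which had an absolute log2 fold change above 0.14. The members and receptor genes named by rule whose sign changed were as follows. *Ifi27l2b* was 0.00116 with the epithelium score and -0.189 to 0.0311 with a library left out. *Tap1* was -0.00478 with quantile normalization, -0.00543 by edgeR, -0.0147 by DESeq2, and -0.0419 to 0.0756 with a library left out. *Ifnar2* was 0.0227 by edgeR and 0.0175 by DESeq2 (-0.18 to 0.0130 with a library left out), and *Ifnlr1* was -0.026 with quantile normalization, -0.0675 by edgeR and -0.0760 by DESeq2 (-0.0776 to 0.11). *Il10rb* was 0.0301 without both accessory gland libraries and 0.0162 with the epithelium score (-0.17 to 0.00630). The cause of these changes was not tested. With 4 mice a group, the exact permutation test cannot go below p = 0.0286. The effect of depth was not tested, and the lowest value of a member was 20.2 normalized counts, for *Tgtp1*.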
